A study of Mus musculus with 6 samples.

Results

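Ubiquitin-specific proteases (USPs) are the largest family of deubiquitinases, the enzymes that take ubiquitin off other proteins. Their genes were examined in primary mouse microglia (PM), the resident macrophages of the brain. The members were every gene symbol in the deposited count tables that begins with Usp followed by a digit, except Usp18, an ISG15 protease. This name rule used no measured value and gave 55 of 24411 genes. It also takes in Usp6nl, which encodes a RAB5 GTPase-activating protein and not a protease, and it leaves out USP-fold genes with other names, such as Cyld.

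The study asked how GSK-J4, an inhibitor of the H3K27 demethylase JMJD3, alters the response of microglia to the bacterial endotoxin LPS, a TLR4 ligand. PM were shaken off mixed glial cultures made from pooled whole brains of 3-day-old ICR mice, and each group had 3 RNA-seq libraries. PM of the GSK-J4 group received 10 μM GSK-J4, and PM of the LPS + GSK-J4 group received 10 μM GSK-J4 and 10 ng/ml LPS, with RNA taken at 4-h. Both groups carry GSK-J4, so every difference below is between cultures with and without LPS in its presence. Untreated and LPS-only PM were not analysed here. Since the brains were pooled, the p values measure the spread between these culture samples and not between animals.

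Most USPs are cysteine proteases with a shared catalytic fold that cut the bond between ubiquitin and a substrate or within a ubiquitin chain. Members differ in what they act on, among them histones, p53 and MYC, receptors in endosomes, free ubiquitin chains and adaptor proteins of Toll-like receptor and NF-κB signalling. In macrophages and microglia, the ubiquitin chains built on TRAF and RIP proteins after TLR4 engagement carry the signal onward, and deubiquitinases trim them.

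Of the 41 members with enough counts to be tested, 4 (9.76%, against 13.9% of all genes tested) passed an adjusted p of 0.01 with edgeR. Usp28, Usp2 and Usp12 fell, and Usp16 rose. The promoters of these 4 genes are shown because their transcripts moved in different directions. The RefSeq sequences (GRCm38.p6) run from 250 bases before to 50 bases after the transcript start, 5′ to 3′ on the strand of the gene. Capitals mark letters that match any of the searched motifs, here the NF-κB pattern GGANNNTCC and the E-box CACGTG.
Usp16, chr16:87454735-87455034, plus strand: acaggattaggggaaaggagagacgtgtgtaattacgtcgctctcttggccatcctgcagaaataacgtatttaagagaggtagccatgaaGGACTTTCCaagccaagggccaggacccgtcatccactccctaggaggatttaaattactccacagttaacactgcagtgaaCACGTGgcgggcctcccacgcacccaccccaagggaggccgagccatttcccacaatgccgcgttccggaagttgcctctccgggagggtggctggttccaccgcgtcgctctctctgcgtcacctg
Usp12, chr5:146794907-146795206, minus strand: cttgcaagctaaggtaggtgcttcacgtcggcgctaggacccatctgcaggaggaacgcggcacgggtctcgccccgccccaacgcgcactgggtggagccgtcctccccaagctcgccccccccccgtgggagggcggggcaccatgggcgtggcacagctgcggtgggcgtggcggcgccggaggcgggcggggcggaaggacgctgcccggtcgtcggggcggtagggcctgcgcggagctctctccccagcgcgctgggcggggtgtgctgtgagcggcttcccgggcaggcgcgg
Usp2, chr9:44084670-44084969, plus strand: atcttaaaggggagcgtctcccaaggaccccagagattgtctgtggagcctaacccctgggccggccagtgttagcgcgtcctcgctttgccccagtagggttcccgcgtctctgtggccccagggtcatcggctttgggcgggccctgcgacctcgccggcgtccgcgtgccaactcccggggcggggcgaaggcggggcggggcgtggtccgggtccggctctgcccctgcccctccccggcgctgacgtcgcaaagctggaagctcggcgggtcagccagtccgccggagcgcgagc
Usp28, chr9:48985135-48985434, plus strand: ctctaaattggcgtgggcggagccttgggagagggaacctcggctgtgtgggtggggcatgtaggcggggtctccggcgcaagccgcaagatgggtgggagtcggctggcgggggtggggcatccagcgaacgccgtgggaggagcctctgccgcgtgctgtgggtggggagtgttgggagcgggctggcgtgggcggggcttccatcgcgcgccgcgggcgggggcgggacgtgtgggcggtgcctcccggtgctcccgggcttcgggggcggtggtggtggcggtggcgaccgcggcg
Usp16 was alone among the 4 in having a match in this window. The Usp2 window belongs to a start 17899 bases inside the GENCODE gene, so it is the promoter of a shorter transcript. The starts of Usp28, Usp12 and Usp16 lay 10, 50 and 282 bases inside their GENCODE genes. The Usp16 window thus begins after the GENCODE gene start at 87454703, and both of its matches lie inside that gene. Bases upstream of that gene start were not searched.

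The libraries held 2597505 to 3472716 fragments assigned to genes, and 3 counts in a library, used as the lower limit, were worth 0.673 to 1.24 CPM (counts scaled to the library's total after TMM). The ribosomal precursor Rn45s took 22.2 to 32.4% of the counts in GSK-J4 and 45.8 to 48.1% in LPS + GSK-J4, so that the latter libraries held fewer counts outside ribosomal features. Replicate 3 of each group stood apart, with a chi-square per degree of freedom of at least 5.81 against its group, compared with 2.12 and 2.32 between replicates 1 and 2. The summed level of 9 microglial markers was 2642 to 2736 CPM with GSK-J4 and 2034 to 2084 CPM with LPS + GSK-J4, with none at 0. All 9 had a lower estimate in LPS + GSK-J4, 7 of them at an unadjusted p under 0.05 in edgeR. Cx3cr1 and Csf1r passed in edgeR, and 4 of the 9 passed in DESeq2. Summed marker levels of other cells were lower than the microglial sums. They were higher with LPS in every library except for fibroblasts and endothelium, where the groups overlapped. They were 53.9 to 59.4 CPM against 131 to 159 CPM for astrocytes (3 of 7 tested higher). For the oligodendrocyte lineage they were 182 to 212 CPM against 352 to 402 CPM (4 of 6 higher). For neurons they were 12 to 12.3 CPM against 28.1 to 33.2 CPM. Only 2 of the 6 neuronal markers were tested, Tubb3 and Stmn2, and each was higher. The others had too few counts, with lower means with LPS for Rbfox3 and Syt1 and higher means for Snap25 and Syp. For fibroblasts and endothelium the sums were 91.4 to 298 CPM against 156 to 482 CPM (1 of 7 higher, Cldn5 at 0 in every library). The part of these shifts in the USP values below was not tested, and fewer cells of a type cannot be told apart from less RNA per cell.

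By direction, among 10133 genes tested with edgeR's quasi-likelihood test, the member that rose was 2.44% of those tested, against 8.42% of all genes, and the 3 that fell were 7.32%, against 5.46%. At an unadjusted p under 0.05 the count was 6 members, 2 higher and 4 lower, which is 14.6% of those tested against 34.8% of all genes. These shares describe the members and were not tested against the other genes. With the study's additional threshold of an absolute log2 fold change of 1.5, Usp28 remained, 2.44% of members against 3.76% of all genes.

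The log2 fold change of LPS + GSK-J4 over GSK-J4 had a median of -0.07 over the 41 members, with 17 positive and 24 negative values. The absolute log2 fold change had a median of 0.23 in the members and 0.32 in all genes tested. The members were also somewhat better expressed, at a median level of 28.1 against 19.9 CPM, with a median SE of 0.187 against 0.216. The part of level and SE in the smaller absolute values was not tested. The levels of the groups did not overlap for 12 members, 6 in each direction, which is 29.3% against 38.2% of all genes. Summed over all members, the level was 1752, 1761 and 1662 CPM in replicates 1 to 3 of GSK-J4 and 1716, 1629 and 1525 CPM in those of LPS + GSK-J4. These sums overlapped between the groups, at 1725 ± 54.7 and 1623 ± 96.0 CPM (SD, n = 3).

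**Figure D1:**
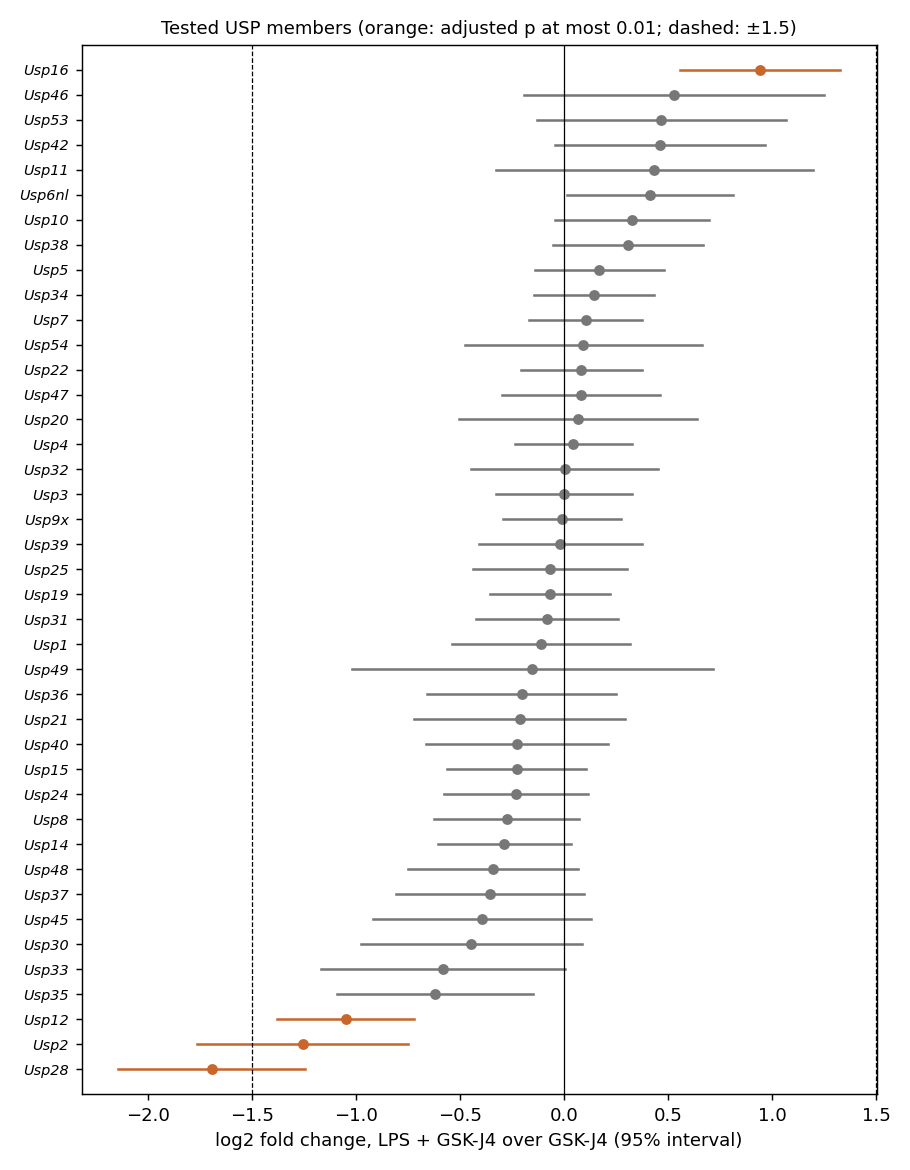
Log2 fold change of LPS + GSK-J4 over GSK-J4 for each of the 41 tested USP members (x axis), with its 95% interval as a line; orange marks an adjusted p of at most 0.01 and the dashed lines a log2 fold change of 1.5 in either direction. Usp28, Usp2, Usp12 and Usp16 stand out from a column of members between -0.62 and 0.53.

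Usp28, a deubiquitinase known for stabilising MYC and for binding 53BP1 in the DNA damage response, had the largest fold change of the 41 tested members. The gene lies on chr9:48985375-49042517 (GENCODE, GRCm38, plus strand). Its level was 72.9, 68.9 and 56.5 CPM with GSK-J4 and 19.1, 13.7 and 28.9 CPM with LPS + GSK-J4. Every LPS + GSK-J4 library lay well below the lowest GSK-J4 library. The means were 66.1 ± 8.57 and 20.6 ± 7.69 CPM (SD, n = 3), so that Usp28 was 3.24-fold lower with LPS. Its log2 fold change was -1.70 ± 0.21 (SE) with adjusted p = 2.38e-05. Replicate 3 was the lowest GSK-J4 library and the highest LPS + GSK-J4 library, so the difference was narrowest there.

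Usp2, an enzyme with rhythmic expression that acts on cyclin D1 and MDM2, was next in size among the members that fell. It is on the same chromosome at chr9:44067021-44095627 (plus strand). Its level was 23.4, 30.8 and 36.3 CPM with GSK-J4 and 16, 12.6 and 8.67 CPM with LPS + GSK-J4. The groups did not overlap, but the counts behind these levels were modest, from 21 to 137 per library. The mean went from 30.1 ± 6.49 to 12.4 ± 3.67 CPM (SD, n = 3), a 2.39-fold lower level, with a log2 fold change of -1.26 ± 0.24 (SE) and adjusted p = 0.00107.

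Usp12 encodes a small USP that needs the WD40 protein WDR48 for full activity. It lies on chr5:146734809-146795006 (minus strand). Its level was 67.7, 72.1 and 64.9 CPM with GSK-J4 and 39.0, 31.3 and 28.5 CPM with LPS + GSK-J4. These GSK-J4 libraries were tight and lay above all LPS + GSK-J4 libraries. The mean fell from 68.2 ± 3.61 to 32.9 ± 5.46 CPM (SD, n = 3), which is 2.07-fold, with a log2 fold change of -1.05 ± 0.15 (SE) and adjusted p = 0.000116.

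Usp16, a deubiquitinase of histone H2A that removes the mark written by Polycomb repressive complex PRC1, was the member that rose. The gene lies on chr16:87454703-87483517 (plus strand) and its exons overlap those of Cct8 on the opposite strand, which the directional counts separate. Its level was 42.5, 37.0 and 30.1 CPM with GSK-J4 and 79.6, 80.1 and 52.4 CPM with LPS + GSK-J4. All LPS + GSK-J4 libraries were higher, with replicate 3 the lowest of each group. The mean rose 1.92-fold from 36.5 ± 6.22 to 70.7 ± 15.8 CPM (SD, n = 3). Its log2 fold change was 0.94 ± 0.18 (SE) with adjusted p = 0.00119. Without LPS + GSK-J4 replicate 2, the log2 fold change of Usp16 was 0.85 and its adjusted p was 0.0145, so that it no longer passed, and Usp28 at -1.47 no longer reached the fold threshold.

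**Figure D2:**
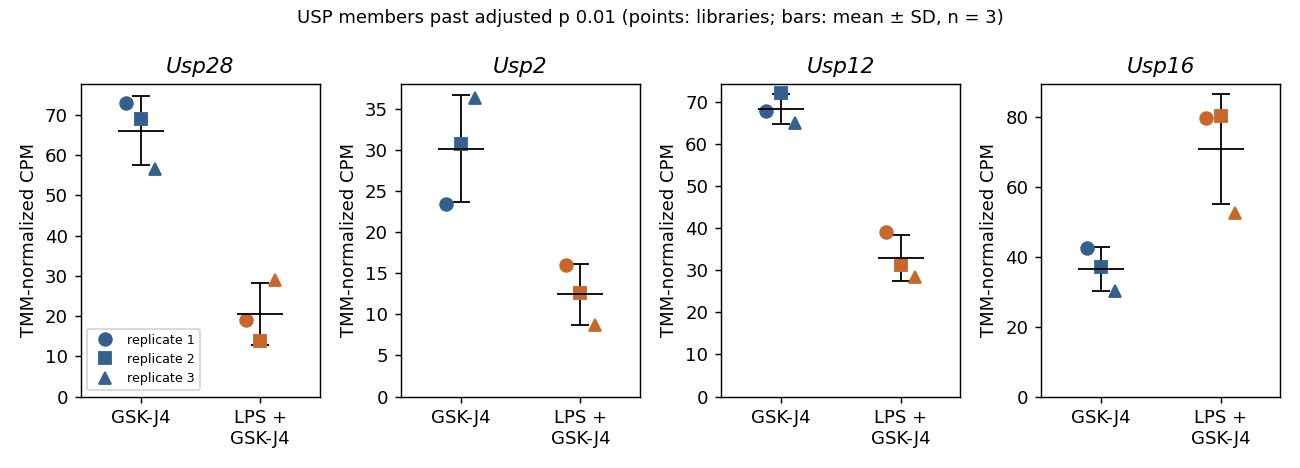
TMM-normalized CPM (y axis, from 0) of the 4 members past adjusted p 0.01 in each library of GSK-J4 and LPS + GSK-J4. Circles, squares and triangles are replicates 1, 2 and 3, and bars give the mean ± SD (n = 3); in each panel the groups do not overlap.

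Each of these genes has a close relative in the family, and within a library the count ratio of such a pair does not depend on the scaling. The pairs were chosen after the changes were seen, so the ratios are a description with no test. Usp28 had 2.41, 2.33 and 2.17 counts for each count of Usp25 in GSK-J4 and 0.662, 0.462 and 1.23 in LPS + GSK-J4. The ratio was lower in every LPS + GSK-J4 library, and least so in replicate 3. For Usp2 against Usp21 the ratio was 2.06, 2.58 and 2.15 in GSK-J4 and 1.41, 1.06 and 0.808 in LPS + GSK-J4. For Usp16 against Usp45 it was 1.36, 1.11 and 1.28 in GSK-J4 and 2.55, 3.50 and 3.97 in LPS + GSK-J4. Both pairs were apart between the groups, in opposite directions. Usp12 against its paralogue Usp46, which had 19 to 53 counts per library, was scattered, at 5.42, 14.0 and 8.85 in GSK-J4 and 5.26, 2.10 and 2.03 in LPS + GSK-J4. The lowest GSK-J4 and highest LPS + GSK-J4 ratios of this pair were nearly equal.

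**Figure D3:**
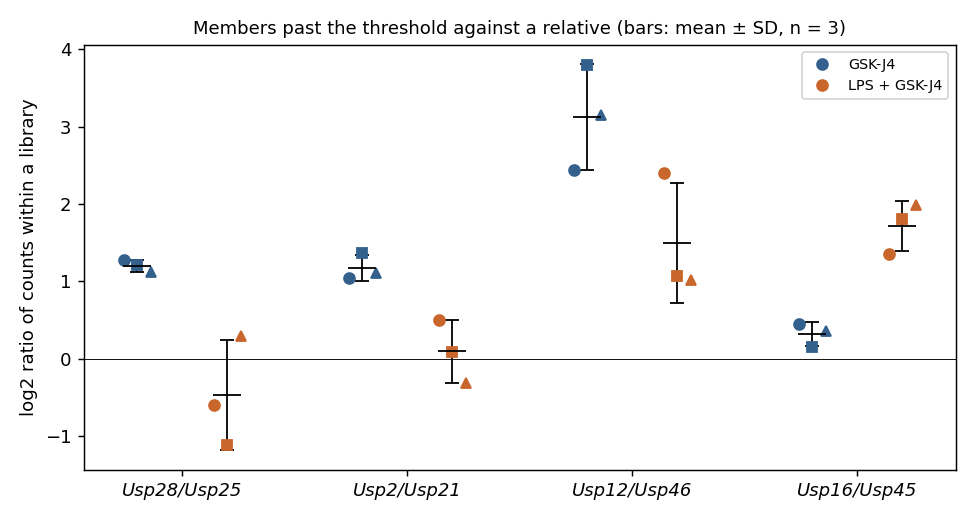
Log2 ratio of the counts of each member past the threshold to those of a relative within the same library (y axis), for GSK-J4 and LPS + GSK-J4. Circles, squares and triangles are replicates 1, 2 and 3, and bars give the mean ± SD (n = 3); the mean moved from 1.20 to -0.47 for Usp28 over Usp25 and from 0.32 to 1.72 for Usp16 over Usp45.

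The other tested members are given by what they act on. DESeq2, which tested 43 members, called the same 4 and no other, so the numbers that passed in the following groups are the same in both tools. The numbers tested are those of edgeR. Among the enzymes of histones and chromatin, 7 of 10 members were tested and Usp16 alone passed, higher. Usp22, the deubiquitinase of the SAGA coactivator complex, was the best expressed of them and had 78.8, 77.2 and 85.8 CPM with GSK-J4 and 76.5, 79.8 and 99.5 CPM with LPS + GSK-J4. Its groups overlapped, with a log2 fold change of 0.08 and adjusted p = 0.719. Usp42, a deubiquitinase of p53 and histone H2B, had 8.49, 8.53 and 8.43 CPM with GSK-J4 and 10.5, 12.2 and 12.4 CPM with LPS + GSK-J4. Its groups did not overlap, yet its log2 fold change of 0.46 had adjusted p = 0.183.

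Among the members that act on p53, MYC and DNA repair proteins, 8 of 9 were tested and Usp28 alone passed, lower. Usp7, the deubiquitinase of MDM2 and p53, had 91.5, 100 and 86.5 CPM with GSK-J4 and 107, 90.8 and 102 CPM with LPS + GSK-J4. The ranges overlapped and the log2 fold change was 0.10 (95% interval -0.17 to 0.37) with adjusted p = 0.613. Usp10, a p53 deubiquitinase that binds the stress granule protein G3BP1, had 21.7, 22.7 and 25.7 CPM against 28.5, 27.1 and 31.8 CPM. These groups were apart by little, and a log2 fold change of 0.33 had adjusted p = 0.201. Usp48 was apart in the other direction, at 19.8, 21.5 and 23.5 CPM against 15.6, 19.1 and 16.1 CPM, with a log2 fold change of -0.34 and adjusted p = 0.222.

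Of the enzymes that WDR48 activates, Usp12 passed and Usp1 and Usp46 did not. Usp1, which acts on PCNA and FANCD2, had a log2 fold change of -0.11 (95% interval -0.54 to 0.32). Usp46 was imprecise, at 0.53 with an interval from -0.19 to 1.25. WDR48 itself, outside the family, had a transcript level of 50.5 ± 1.91 CPM with GSK-J4 and 53.5 ± 5.93 CPM with LPS + GSK-J4 (Wdr48, log2 fold change 0.09, adjusted p = 0.72). Of the cell cycle members, Usp2 passed, while Usp37, a deubiquitinase of cyclin A, had overlapping groups at 34.7, 44.9 and 23.8 CPM against 26.1, 30.9 and 24.8 CPM. Its log2 fold change was -0.36 with adjusted p = 0.255.

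The members with roles in TGF-β, Wnt and immune signalling include enzymes that act on TRAF proteins downstream of TLR4. Of 9 members 8 were tested, 0 passed and 1, Usp35, had an unadjusted p under 0.05 in edgeR. Usp25, which acts on TRAF proteins in Toll-like receptor and IL-17 signalling, had 30.2, 29.6 and 26 CPM with GSK-J4 and 28.9, 29.8 and 23.5 CPM with LPS + GSK-J4. These values overlapped closely, and the 95% interval of the log2 fold change of -0.07 ran from -0.44 to 0.30. Usp9x, a large X-linked USP and the most counted of the group, had 164, 140 and 142 CPM against 170, 146 and 126 CPM, with a log2 fold change of -0.01 (95% interval -0.29 to 0.27). Usp4, Usp15, Usp31 and Usp34 had log2 fold changes between -0.23 and 0.15, all with overlapping groups. Usp38, a regulator of TBK1, was at 24.3, 24.9 and 27.5 CPM against 33.2, 33.2 and 28.1 CPM, and its groups did not overlap. Its log2 fold change of 0.31 had adjusted p = 0.218.

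Usp35, the paralogue of Usp38, was the first member outside the threshold, while Usp16 was the last inside. Usp35 had 19.8, 16.8 and 21.6 CPM with GSK-J4 and 13.3, 9.54 and 14.9 CPM with LPS + GSK-J4. The groups did not overlap, and the log2 fold change was -0.62 ± 0.22 (SE) with adjusted p = 0.0544. Antisense counts were 18.7% of the counts of Usp35 on either strand, the largest share of any tested member, and with unstranded counts the log2 fold change was -0.37.

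Usp21, a deubiquitinase of histone H2A and of RIPK1, is also a small member with a role in TNF signalling. It had 11.3, 11.9 and 16.9 CPM with GSK-J4 and 11.3, 11.8 and 10.7 CPM with LPS + GSK-J4. Apart from the high GSK-J4 replicate 3 the libraries were alike, and the log2 fold change of -0.21 (95% interval -0.72 to 0.29) had adjusted p = 0.573.

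Of the USPs of endosomes, endoplasmic reticulum, Golgi and mitochondria, all 6 were tested, 0 passed and 0 had an unadjusted p under 0.05 in edgeR. Usp8, the endosomal enzyme that acts on EGFR, had 94.8, 113 and 86.5 CPM with GSK-J4 and 99.9, 80.9 and 62.4 CPM with LPS + GSK-J4, with a log2 fold change of -0.28 and adjusted p = 0.251. Usp19, anchored in the endoplasmic reticulum, had 84.0, 90.9 and 111 CPM against 93.3, 91.2 and 87.1 CPM, with a log2 fold change of -0.07. Both pairs of groups overlapped. Usp33, a paralogue of Usp20 that acts on receptors, had 16, 15 and 16.1 CPM against 11.7, 14.1 and 5.37 CPM. Its groups did not overlap, with LPS + GSK-J4 replicate 3 far below the others, and a log2 fold change of -0.58 had adjusted p = 0.145.

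Of the enzymes of free chains and the proteasome, Usp5 and Usp14 were tested, 0 passed and 0 had an unadjusted p under 0.05 in edgeR. Usp14, which sits on the proteasome, had 105, 100 and 81.4 CPM with GSK-J4 and 83.1, 88.5 and 63.6 CPM with LPS + GSK-J4, with overlapping groups and a log2 fold change of -0.29 (adjusted p = 0.189). Usp5, which takes apart unanchored ubiquitin chains, had a log2 fold change of 0.17 (95% interval -0.14 to 0.48).

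Usp39, Usp50, Usp53, Usp54 and Usp6nl encode proteins that lack protease activity or were long held to lack it. Of these, 4 were tested, 0 passed and 1, Usp6nl, had an unadjusted p under 0.05 in edgeR. Usp6nl had 20.3, 23.6 and 19.1 CPM with GSK-J4 and 33.2, 26.3 and 24.8 CPM with LPS + GSK-J4. The groups were apart by a small margin, and the log2 fold change of 0.41 had adjusted p = 0.128. Usp53, a tight junction protein, was apart in the same direction at 5.66, 6.06 and 6.60 CPM against 7.81, 10.3 and 7.02 CPM (log2 fold change 0.47, adjusted p = 0.261). Usp39, a splicing factor of the tri-snRNP, had a log2 fold change of -0.02. The little-studied Usp40 had overlapping groups, a log2 fold change of -0.23 and adjusted p = 0.478.

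Over the 37 tested members that did not pass, log2 fold changes ran from -0.62 (Usp35) to 0.53 (Usp46). The 95% interval lay within a log2 fold change of 1 in either direction for 31 of them, so larger changes of these lay outside the interval. The intervals of Usp46, Usp53, Usp11, Usp35, Usp33 and Usp49 reached further, with outer bounds of 1.25 and -1.17.

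The 14 members that did not reach the count filter were Usp9y, Usp13, Usp26, Usp27x, Usp29, Usp43, Usp44, Usp50, Usp51 and the 5 Usp17-like genes Usp17la, Usp17lb, Usp17lc, Usp17ld and Usp17le. Usp17lb, Usp17lc, Usp17ld, Usp17le and Usp26 had 0 counts in every library, which at 3 counts allows a level of 0.673 to 1.24 CPM in a library. The Usp17-like genes are near-identical copies, and fragments that map to several of them are not counted. Usp13, the paralogue of Usp5, had 8, 5 and 2 counts in GSK-J4 and 9, 5 and 14 counts in LPS + GSK-J4, and Usp29 had 1, 2 and 0 against 2, 3 and 4. In CPM both were higher in all LPS + GSK-J4 libraries, but without a count filter edgeR's adjusted p values were 0.056 for Usp13 and 0.218 for Usp29. DESeq2 gave Usp13 a log2 fold change of 1.49 with adjusted p = 0.200, and gave no adjusted p for Usp29. Usp43 had 2, 0 and 2 counts in GSK-J4 and 2, 3 and 5 in LPS + GSK-J4. In CPM it was also higher in all LPS + GSK-J4 libraries, with adjusted p = 0.246 in edgeR without a count filter. The closest libraries of the groups, at 0.733 and 0.781 CPM, each had 2 counts, under the lower limit of 3. Usp27x, an X-linked relative of Usp22, had 3 to 12 counts per library, and its groups overlapped.

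Levels of different members can be compared only per length, here as CPM per kb of the exons of each gene. Over all 6 libraries the tested members spanned from 0.391 CPM per kb for Usp49 to 21.4 CPM per kb for Usp8, with a median of 3.86. In GSK-J4 the order at the top was Usp8 at 23.4 ± 3.2, Usp22 at 16.5 ± 0.93, Usp12 at 14.7 ± 0.78, Usp19 at 13.5 ± 2.0, Usp7 at 11.9 ± 0.90, Usp5 at 11.7 ± 0.81, Usp14 at 11.4 ± 1.5 and Usp28 at 11.3 ± 1.5 CPM per kb (SD, n = 3). From Usp12 to Usp28, each gene differed from the next by less than their summed SDs. In LPS + GSK-J4 Usp8 and Usp22 were again highest per kb, at 19.3 ± 4.5 and 17.4 ± 2.6, while Usp12 was at 7.10 ± 1.2 and Usp28 at 3.53 ± 1.3 CPM per kb. Usp12 and Usp28 were thus among the best expressed members per kb of exon without LPS. Usp16 was then at 3.86 ± 0.66, near the median of the family, and reached 7.48 ± 1.7 CPM per kb with LPS. The ranks depend on the length used, since the exons of Usp16 cover 9454 bases and its longest transcript 3582. Per kb of the longest transcript, over all libraries, Usp16 ranked 8 instead of 15, Usp12 10 instead of 6, and Usp28 12 by either length.

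**Figure D4:**
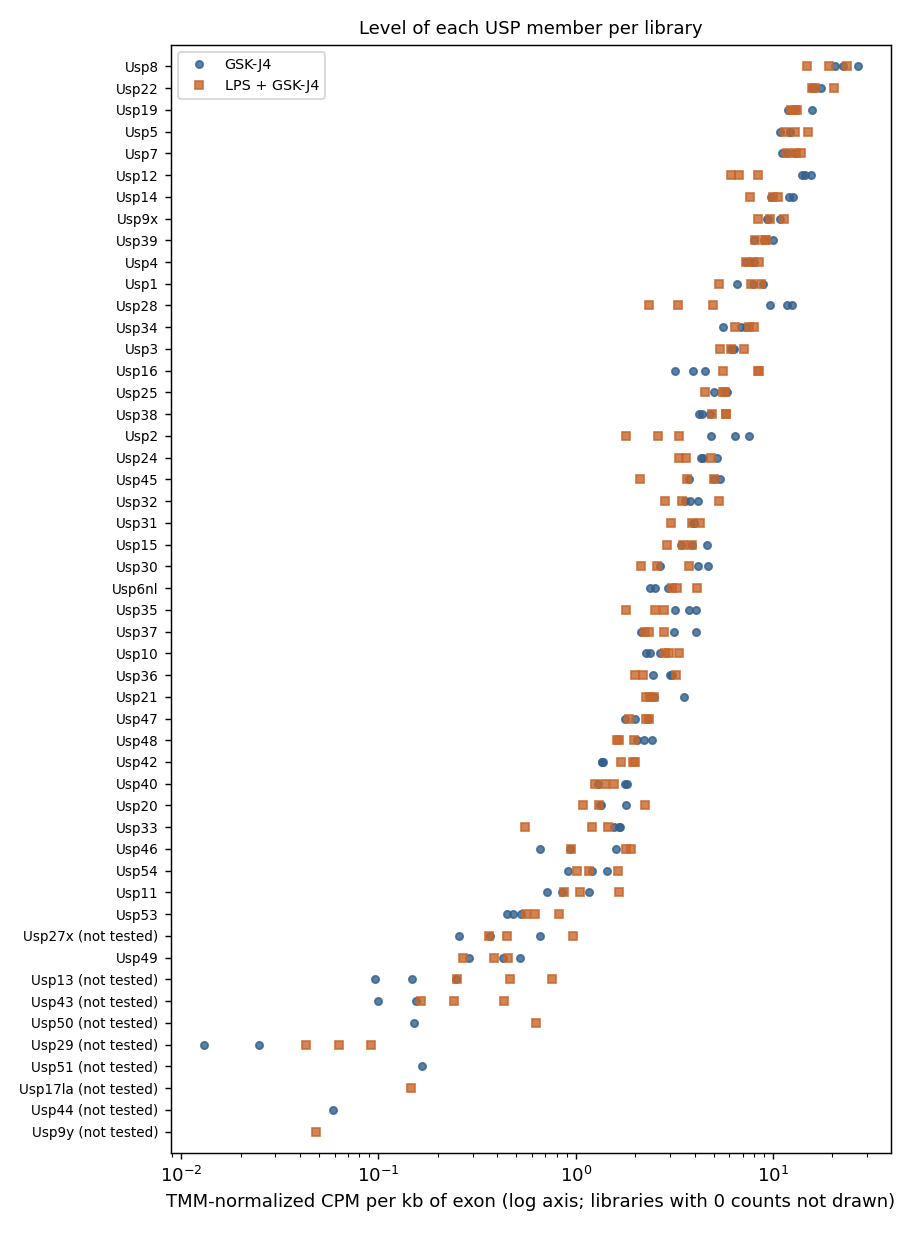
Level of each USP member in each library as TMM-normalized CPM per kb of exon (x axis, log scale; libraries with 0 counts are not drawn), ordered by the mean over all libraries. Blue circles are GSK-J4 and orange squares LPS + GSK-J4. For most members the symbols overlap. The groups of 12 tested members are separate, among them Usp28, Usp12, Usp2 and Usp16.

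On the antisense strand the members had 685 counts, 2.09% of 685 antisense and 32162 sense counts. This share was 1.67 to 2.10% in GSK-J4 libraries and 1.79 to 3.02% in LPS + GSK-J4 libraries, so the groups overlapped. Apart from Usp35, the largest shares among tested members were 10.3% for Usp54, whose exons overlap other genes on the opposite strand, and 7.25% for Usp49.

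Promoter windows of the kind shown above were matched for 43 of the 55 members, 32 of them tested. Their median GC content was 64.3% and their median number of CpG dinucleotides 25, against 52.7% and 7 over all 32851 promoters. Each member had 1 window, while this background was not limited to 1 window per gene or to genes tested. The shares of all promoters below use the same background. The NF-κB pattern GGANNNTCC, searched on both strands, was found in 6 of the 43 (Usp8, Usp15, Usp16, Usp29, Usp36 and Usp50), 14.0% against 8.62% of all promoters. The narrower GGANTTTCC, contained in the former, was found in Usp16 alone, 2.33% against 1.25% of all promoters. The E-box CACGTG was found in 5 members (Usp4, Usp6nl, Usp16, Usp31 and Usp32), 11.6% against 7.15%. The interferon-stimulated response element GAAANNGAA was found in 4 members, 9.30% against 8.56%, and its stricter form GAAANTGAA in 0, against 2.21% of all promoters. The GAS pattern TTCNNNGAA was found in 6, 14.0% against 8.30%, none of them a tested member, and its stricter form TTCCNGGAA in 0, against 1.15%. The AP-1 pattern TGANTCA was found in 5, 11.6% against 7.81%, its stricter form TGACTCA in 4, 9.30% against 5.20%, and the cyclic AMP response element TGACGTCA in 1, 2.33% against 1.79%. These matches are descriptions of letters and not of factor binding. Of the members that carry the NF-κB pattern, Usp8, Usp15 and Usp36 were tested beside Usp16 and did not pass, with log2 fold changes of -0.28, -0.23 and -0.21.

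Genes of deubiquitinase families outside the name rule, listed by family or fold and not by activity, were counted in the same fit. Of 39 tested, 3 were higher (7.69%, against 8.42% of all genes) and 1 lower (2.56%, against 5.46%), and the median log2 fold change was 0.02. Tnfaip3, which encodes the OTU enzyme A20, a ubiquitin-editing inhibitor of NF-κB, had 214, 182 and 144 CPM with GSK-J4 and 2253, 2183 and 2211 CPM with LPS + GSK-J4. With a log2 fold change of 3.61 ± 0.14 (SE) and adjusted p = 1.60e-11, it moved further than any USP member. Otud1 of the same family went from 15.4 ± 3.16 to 46.6 ± 4.59 CPM (log2 fold change 1.62, adjusted p = 1.19e-05). Uchl1, a UCH enzyme abundant in neurons, went from 12 ± 0.877 to 35 ± 6.49 CPM (log2 fold change 1.55, adjusted p = 3.11e-05), beside the neuronal markers given above, whose part in it was not tested. The gene that fell was Fam63b, which encodes the MINDY enzyme MINDY2 for long K48-linked chains, from 100 ± 10.3 to 56.2 ± 13.7 CPM (log2 fold change -0.83, adjusted p = 0.00156), and it lost the call without GSK-J4 replicate 2 or LPS + GSK-J4 replicate 2, at adjusted p = 0.0103 and 0.0111.

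By class, 2 of 13 tested OTU genes, 1 of 4 UCH genes and 1 of 4 MINDY and ZUFSP genes passed in edgeR. None of 12 JAMM, 3 Josephin and 3 other USP-fold genes (Cyld, Uspl1 and Pan2) passed in edgeR or DESeq2, with 2, 1 and 0 of them at an unadjusted p under 0.05 in edgeR. Among the cofactors of USPs, 1 of 7 tested passed, G3bp1, the partner of Usp10, which rose from 98.3 ± 8.29 to 161 ± 1.23 CPM (log2 fold change 0.71, adjusted p = 0.000396). Of 5 tested ubiquitin precursor and E1 genes 0 passed in either tool and 1 had an unadjusted p under 0.05. Of 31 constitutive proteasome subunits 0 passed in either tool. In edgeR 9 of the 31 had an unadjusted p under 0.05, against 34.8% of all genes. A positive log2 fold change was seen for 26, with a median over the 31 of 0.22, against -0.0006 over all genes tested. Without LPS + GSK-J4 replicate 3, 3 proteasome subunits and 1 JAMM gene passed in edgeR, all higher, with no share of all genes given for that setting. Psmd7 and Psmd14 are in both of these lists, so the same gene can be counted in each.

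**Figure D5:**
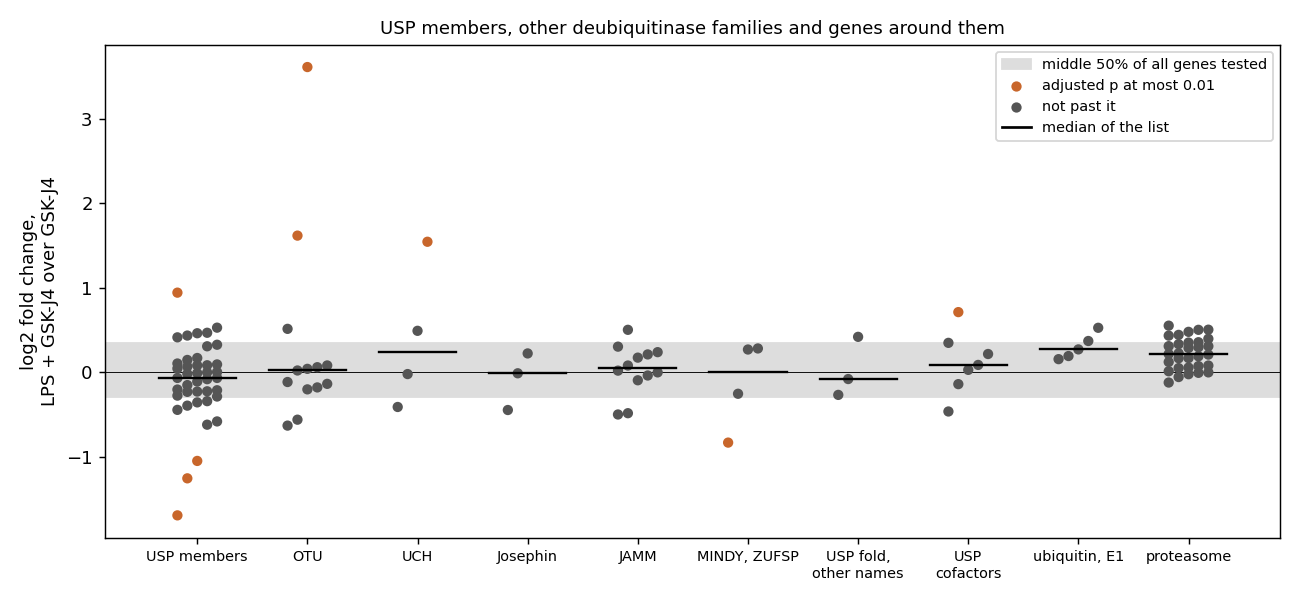
Log2 fold change of LPS + GSK-J4 over GSK-J4 (y axis) for tested USP members, other deubiquitinase families, USP cofactors, ubiquitin and E1 genes and proteasome subunits, 1 point per gene. Orange points have an adjusted p of at most 0.01, horizontal bars are list medians and the grey band is the middle 50% of all genes tested; Tnfaip3 is the point at 3.61.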

How the data were processed

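The authors made libraries of 3 GSK-J4 and 3 LPS + GSK-J4 samples with a directional kit after rRNA removal, trimmed the paired reads (Trimmomatic 0.33), aligned them to mm10 (STAR 2.5.1) and deposited raw fragment counts per gene. The annotation behind the counts is not given in the sources used here. STAR leaves out fragments that map to several places or genes, so near-identical copies are undercounted. The reverse-strand column was used, and the same-strand column gave antisense counts.

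Groups came from the labels. edgeR 4.0.16 (R 4.3.3, limma 3.58.1) was run with TMM scaling, filterByExpr (minimum count 10, minimum total 15) and the robust quasi-likelihood test without covariates. Benjamini-Hochberg adjustment covered all 10133 genes tested, and a gene passed at 0.01. The study's fold threshold was a log2 fold change of 1.5. An exact permutation test of 3 libraries against 3 cannot go below p = 0.1. The script was tested on data simulated with the common dispersion. There edgeR called 20 of 50 genes at an absolute log2 fold change of 0.75, 33 of 50 at 1 and 97 of 100 at 2. Changes of 1 or less can thus be missed. Alternatives were DESeq2 1.42.0, unstranded counts, other filters and scalings, a replicate block and left-out libraries. Leaving out both replicate 3 libraries, and the pairs of relatives, were chosen after the data were seen.

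By rule, the members named were those that passed, Usp12, Usp21 and Usp25 (named in the study's text), the most counted of each role group, those next to the threshold and those not tested. Of other lists, those that passed were named, up to the 3 largest changes in each direction. Other members were named after their values were seen. The members and lists were chosen with earlier results of these data known. Positions and exon lengths are from GENCODE M21 (GRCm38, the assembly of mm10), and promoters from RefSeq. Protein sequences were not analysed here. Figures were drawn with matplotlib 3.10.9 in Python 3.11.15.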

Additional observations from a re-analysis of the deposited data

How the results depend on the processing

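The 4 USP members that passed did so under every alternative run, and none was added, except that Usp16 was lost without LPS + GSK-J4 replicate 2. When 1 library was left out, 0 to 1 members were higher and 0 to 1 were past both thresholds. At an adjusted p of 0.05 with a log2 fold change of 1, 3 members were past both. Of the genes of other deubiquitinase families, 2 were lower without a count filter, with the replicate block and at an adjusted p of 0.05. Without both replicate 3 libraries 2 were lower too. When 1 library was left out, 0 to 2 were lower (0 without GSK-J4 or LPS + GSK-J4 replicate 2, and 2 without LPS + GSK-J4 replicate 3). The cofactor, ubiquitin and proteasome lists had 1 call, against 8 with the replicate block (6 of them proteasome subunits). They had 5 at an adjusted p of 0.05 and 5 without both replicate 3 libraries. When 1 library was left out they had 1 to 4 (4 without LPS + GSK-J4 replicate 3). The shares of all genes that passed under these alternatives are not given here, so the counts are not set against a background.

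Among the named genes, signs turned only for members near 0 that did not pass. When 1 library was left out, the log2 fold change ran from -0.13 to 0.026 for Usp25, from -0.13 to 0.087 for Usp9x, from -0.16 to 0.050 for Usp19 and from -0.041 to 0.15 for Usp22. Without both replicate 3 libraries it was 0.0032 for Usp21, 0.065 for Usp9x and 0.084 for Usp19. Without division by length, 3 of the 5 highest members per kb remained among the 5 highest. The stricter NF-κB pattern was in 1 promoter against 6. The cause of these shifts was not tested.

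Same-numbered libraries of the groups had deviations correlated at -0.01, 0.12 and 0.30, and GSK-J4 replicates 1 and 2 correlated best with another number, so the numbers were not taken as pairs. Low counts limit the 14 members not tested. The planned comparison of protein features was not run.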
